A study of Mus musculus with 12 samples.

Results

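The comparison sets 3 liver arrays labelled TGFB KO, from mice without transforming growth factor beta 1 (Tgfb1) whose interferon gamma gene (Ifng) is intact, against 3 liver arrays labelled as Balb/c wild type. They were taken by their titles, as 6 of the 12 arrays of the study, and no measured value entered the choice. The series measured liver RNA of BALB/c mice by oligonucleotide array, with 3 mice in each of 4 groups, and asked what loss of Tgfb1 does in the liver and how much of it needs Ifng. The control mice are littermates that keep Tgfb1. Each array is 1 mouse, all mice share the BALB/c background, neither group carries an agent or a further allele in the labels, and age is not given in the sources used here. The deletion is labelled without a promoter or a cell type, and the Tgfb1 allele itself is not described. The other 6 arrays, labelled INFko TGFB+ and IFNko TGFB1 KO, entered here as part of the normalization and of the estimate of spread.

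TGF-beta1 is a secreted cytokine that is kept latent in the matrix until it is released and binds a receptor pair, which phosphorylates the Smad transcription factors. It restrains T cell activation and macrophage activation, and in liver it also drives stellate cells to deposit matrix. BALB/c mice without it develop an inflammation of the liver in which CD4+ T cells and IFN-gamma take part, and IFN-gamma acts through the Jak1 and Jak2 kinases to raise antigen presentation, guanylate-binding proteins and chemokines. Hepatocytes, the main cells of the liver, make plasma proteins, bile acids and lipids and clear foreign compounds, and growth hormone from the pituitary sets their output of insulin-like growth factor 1 (IGF-1).

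Values are signals as deposited, in arbitrary linear units, given in the order of replicates 1, 2 and 3 of each group. Fold changes are differences of mean log2(signal + 16) after quantile normalization, TGFB KO minus wild type, ± the standard error, with 3 arrays in each group. A gene is called higher or lower where the limma test, adjusted over 12755 genes by the Benjamini-Hochberg method, gives p under 0.05. The 6 arrays had median signals between 35.5 and 42.6. The rank correlation of 2 arrays was 0.842 to 0.857 within wild type, 0.879 to 0.885 within TGFB KO and 0.816 to 0.857 between the groups, and the first principal component, with 63.4% of the variance, separated the groups. By Xist and Eif2s3y, wild type 2 and TGFB KO 1 came from female mice and the other 4 from males. Wild type 2 also held skeletal muscle RNA, with 709 for Ckm, 1266 for Mylpf and 2077 for Acta1 against at most 63.7 for any of them in the other 5 arrays, and none of the 3 was called. Alb, which defines hepatocytes, was at 20398 or above in all 6 arrays. In whole liver RNA, fewer cells of a type and less RNA per cell cannot be told apart.

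Loss of Tgfb1 changed about as many genes in each direction, and the large changes were mostly rises. In TGFB KO 1553 genes (12.2% of the 12755 tested) were higher and 1524 (11.9%) were lower, and 3034 of these 3077 had no overlap between the 2 sets of arrays, against 5142 (40.3%) of all genes tested. The median log2 fold change of all genes was -0.06. At 4-fold or more there were 355 rises against 92 falls, and at 8-fold or more 109 against 17. With the arrays centred on their medians in place of quantile normalization, 1449 were higher and 894 lower, so that rises made up 61.8% of the calls in place of 50.5%. Left out in turn, single arrays gave 1159 to 1382 genes higher and 1024 to 1209 lower. Fold changes of dim genes depend on the added constant of 16: among 675 called genes of the lists and families used below, a constant of 64 moved 115 and a constant of 1 moved 33 by over 1.5 times, without turning any direction.

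**Figure D1:**
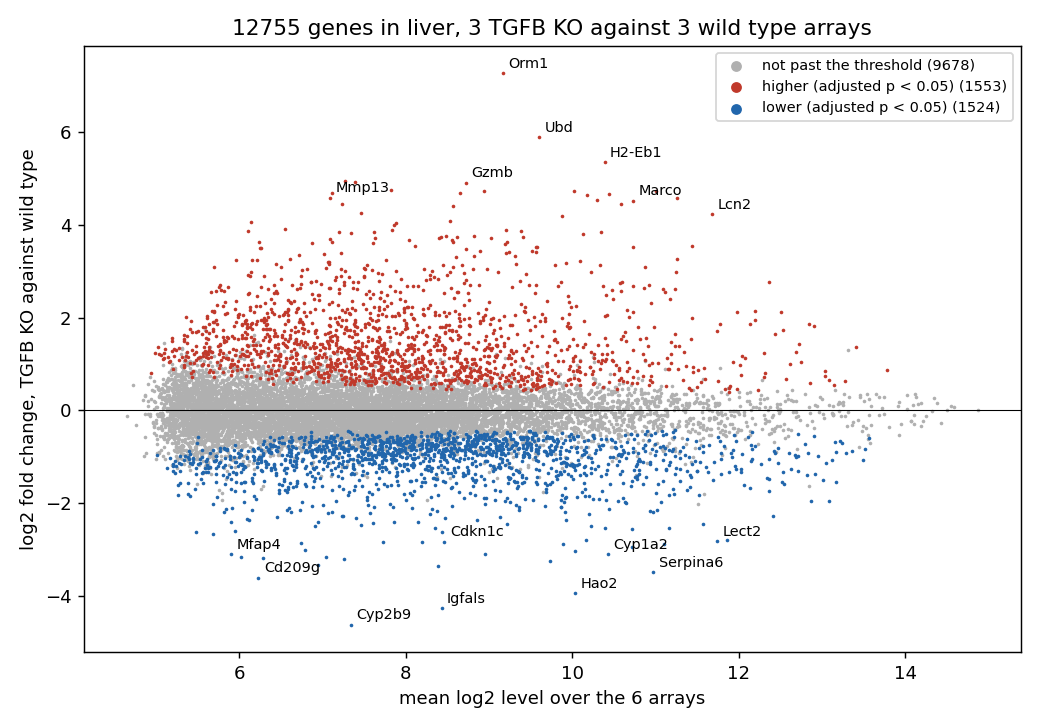
Log2 fold change (TGFB KO against wild type) against the mean log2 level over the 6 arrays, a point for each of the 12755 genes tested. Red marks the 1553 genes called higher, blue the 1524 called lower and grey the rest; the points above 4 are rises, and Cyp2b9 and Igfals are the 2 points below -4.

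The targeted gene was read first. Tgfb1 had signals of 391, 455 and 110 in wild type and of 71.2, 87.6 and 45.5 in TGFB KO. The groups did not overlap, and wild type 3 lay much closer to the TGFB KO arrays than wild type 1 and 2 did. The log2 fold change was -1.82 ± 0.44 (limma adjusted p = 0.0105), and the mean of its 2 probe sets gave -0.85, because the other probe set, dimmer, differed by 0.13 ± 0.30 and was not called. The place of the probe sets relative to the deletion is not given in the sources used here. Ifng had signals of 23.3, 25.9 and 5.95 in wild type and of 85.9, 94.3 and 202 in TGFB KO, a log2 fold change of 2.07 ± 0.30 (limma adjusted p = 0.000508), with all 3 TGFB KO arrays above all wild type arrays. With a constant of 64 the Ifng value was 1.19.

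Of 24 tested genes of TGF-beta ligands, activators, receptors and Smads, 6 were higher and 4 lower, and their median was -0.02 beside -0.06 for all genes. The related ligand gene Tgfb3 was called higher (1.48, or 0.78 with a constant of 64), a call lost with a constant of 1 and without wild type 1. Among receptors, Acvrl1, an endothelial type I receptor of the family, had signals of 18.1, 10.6 and 49.7 in wild type and of 242, 124 and 116 in TGFB KO (log2 fold change 2.11 ± 0.39, limma adjusted p = 0.00278; 1.29 with a constant of 64). Tgfbr2, the ligand-binding receptor, rose from 377, 477 and 499 to 886, 991 and 1090 (1.10 ± 0.19, and 0.69 as the mean of its probe sets). Tgfbr1, its signalling partner, did not pass (0.19 ± 0.18). Thus the receptors were split, with Tgfbr2 about doubled in every TGFB KO array and Tgfbr1 within the wild type range in 1 of them. Among proteins that hold or free latent TGF-beta, Nrros, which anchors it on macrophages, rose by 1.55 ± 0.28, and Ltbp4, a latent TGF-beta binding protein of the matrix, changed from 644, 581 and 315 to 142, 152 and 97.4 (-1.83 ± 0.31, limma adjusted p = 0.00151). Of the Smads, Smad6 rose by 0.88, Smad2, Smad3, Smad4 and Smad7 lay between -0.32 and -0.02 without a call, and Ski, a corepressor of Smads, fell by 0.93 ± 0.20. Among 18 classical TGF-beta target genes 3 were higher and 0 lower (median 0.32), near the 12.2% of all genes called higher, and only Id2, a partner that blocks helix-loop-helix factors, stayed called when TGFB KO 1 was left out (419, 464 and 730 against 1287, 1264 and 2093, 1.48 ± 0.27). Smad7, Pmepa1 and Fn1, which TGF-beta induces in many cells, had log2 fold changes of -0.32, 0.18 and -0.31 and were not called.

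The genes that IFN-gamma and its relatives induce were higher across their roles. All 11 tested guanylate-binding protein and immunity-related GTPase genes, whose products attack the vacuoles of intracellular microbes, were called higher (median 2.77), where 12.2% of all genes were. Gbp2 went from 360, 230 and 265 to 3884, 4659 and 3994 (3.80 ± 0.18), Gbp8 from 80.5, 60 and 136 to 1380, 1073 and 2023 (3.74 ± 0.28) and Igtp from 1041, 661 and 903 to 6568, 7316 and 7471 (2.99 ± 0.21). In each of these the lowest TGFB KO array was several times the highest wild type array. The promoters of Gbp2, Igtp and Irgm2, and of the chemokine gene Cxcl10, are shown because the members rose together. Each run is the 250 bases before the RefSeq gene start, written along the strand of the gene (GRCm38.p6), and capitals mark matches to the core of the interferon-stimulated response element (GAAA, any 2 bases, GAAA) or to TTCNNNGAA, the palindrome that Stat dimers can bind; both strands were searched. They lie at chr3:142620413-142620662 (Gbp2, plus strand), chr11:58199306-58199555 (Igtp, plus), chr11:58214727-58214976 (Irgm2, plus) and chr5:92348890-92349139 (Cxcl10, minus).
Gbp2: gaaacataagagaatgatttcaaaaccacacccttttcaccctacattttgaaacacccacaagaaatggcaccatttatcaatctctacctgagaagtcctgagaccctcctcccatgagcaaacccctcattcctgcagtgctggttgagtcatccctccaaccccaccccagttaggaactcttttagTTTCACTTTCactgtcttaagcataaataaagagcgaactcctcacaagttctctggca
Igtp: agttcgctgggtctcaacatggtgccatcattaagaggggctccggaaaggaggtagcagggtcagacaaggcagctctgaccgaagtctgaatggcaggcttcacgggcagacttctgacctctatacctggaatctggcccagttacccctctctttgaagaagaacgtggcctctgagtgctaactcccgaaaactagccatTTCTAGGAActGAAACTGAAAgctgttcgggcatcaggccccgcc
Irgm2: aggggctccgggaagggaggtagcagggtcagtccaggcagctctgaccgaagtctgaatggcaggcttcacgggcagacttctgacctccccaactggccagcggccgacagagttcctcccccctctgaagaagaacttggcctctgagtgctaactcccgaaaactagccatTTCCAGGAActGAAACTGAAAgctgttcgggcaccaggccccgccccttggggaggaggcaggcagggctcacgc
Cxcl10: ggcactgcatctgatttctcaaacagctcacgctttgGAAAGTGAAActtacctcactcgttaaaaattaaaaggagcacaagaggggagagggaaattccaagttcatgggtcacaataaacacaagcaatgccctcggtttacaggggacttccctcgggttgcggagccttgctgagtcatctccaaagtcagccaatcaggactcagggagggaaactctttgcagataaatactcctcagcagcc

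The response element match begins at position -59 from the start of Gbp2, on the opposite strand, and at -213 in Cxcl10. In Igtp and Irgm2 a TTCNNNGAA match, at -45 and -75, is followed by a response element match at -34 and -64. Of the 8 tested GTPase genes with a RefSeq promoter, 7 held the response element core and 3 held TTCNNNGAA, and some of these genes are close copies of each other. In other lists that rose the core lay in 7 of 16 promoters of type I interferon stimulated genes, but in 1 of 9 of MHC class II, 1 of 14 of class I and 2 of 16 of chemokines, Cxcl10 being among these. RefSeq promoters matched 10288 of the 12755 genes. The core lay in 269 of them (2.61%), in 62 of 1226 promoters of genes called higher (5.06%), in 25 of 280 of those higher by at least 4-fold (8.93%) and in 29 of 1246 of genes called lower (2.33%). For genes lower by at least 4-fold it was 2 of 73 (2.74%). TTCNNNGAA lay in 6.01% of all, 8.16% of higher and 5.70% of lower genes, and in 11.1% and 8.22% of those higher and lower by at least 4-fold. For NF-kB only a single fixed sequence, without variable bases, was searched. It lay in 19 promoters of all genes, 4 of the higher and 0 of the lower genes. Variant forms of the NF-kB site were not searched, in Cxcl10 or elsewhere, so these counts do not show how common such sites are. A match is a description of the letters and not a bound site.

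The other interferon genes rose as a group too. Of 25 genes of IFN-gamma induction, receptors and signalling, 17 were higher and 0 lower (median 0.99). Irf8, a transcription factor of myeloid cells, went from 221, 168 and 216 to 2900, 1978 and 2344 (3.43 ± 0.21), and Irf1, the first responder of the pathway, from 551, 435 and 419 to 2524, 1775 and 1856 (2.07 ± 0.21). The feedback inhibitors Socs3 and Socs1 rose by 2.59 ± 0.41 and 1.74 ± 0.27. For the receptor chains, Ifngr1 had 0.95 ± 0.27 (limma adjusted p = 0.0239, but between 0.0554 and 0.0931 without wild type 1, wild type 3 or TGFB KO 2), and Ifngr2 was not called (0.39). Of 23 type I interferon stimulated genes 20 were higher (median 1.77). Ifit2, an antiviral RNA-binding protein gene, was at 93.5, 89.1 and 93.8 against 878, 890 and 803 (2.93 ± 0.13), and Mx2, Ddx58 and Cmpk2 were not called. The probe sets of Cmpk2 disagreed, with 0.01 for the set used and 1.09 for a dimmer one that was called (limma adjusted p = 0.0248). All 16 antimicrobial and oxidative effector genes were higher (median 3.10). Cybb, the catalytic subunit of the phagocyte oxidase, went from 384, 189 and 288 to 2252, 2381 and 3234 (3.14 ± 0.26), and Slc11a1, which pumps metal ions out of phagosomes, from 108, 133 and 165 to 1206, 1152 and 1542 (3.05 ± 0.24). Gch1, which makes the cofactor of nitric oxide synthase, had the least (0.66, or 0.41 and not called as the mean of its probe sets). It also lost the call under median centring and without wild type 1, wild type 2, TGFB KO 2 or TGFB KO 3 (limma adjusted p between 0.0660 and 0.0860 with these arrays left out).

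**Figure D2:**
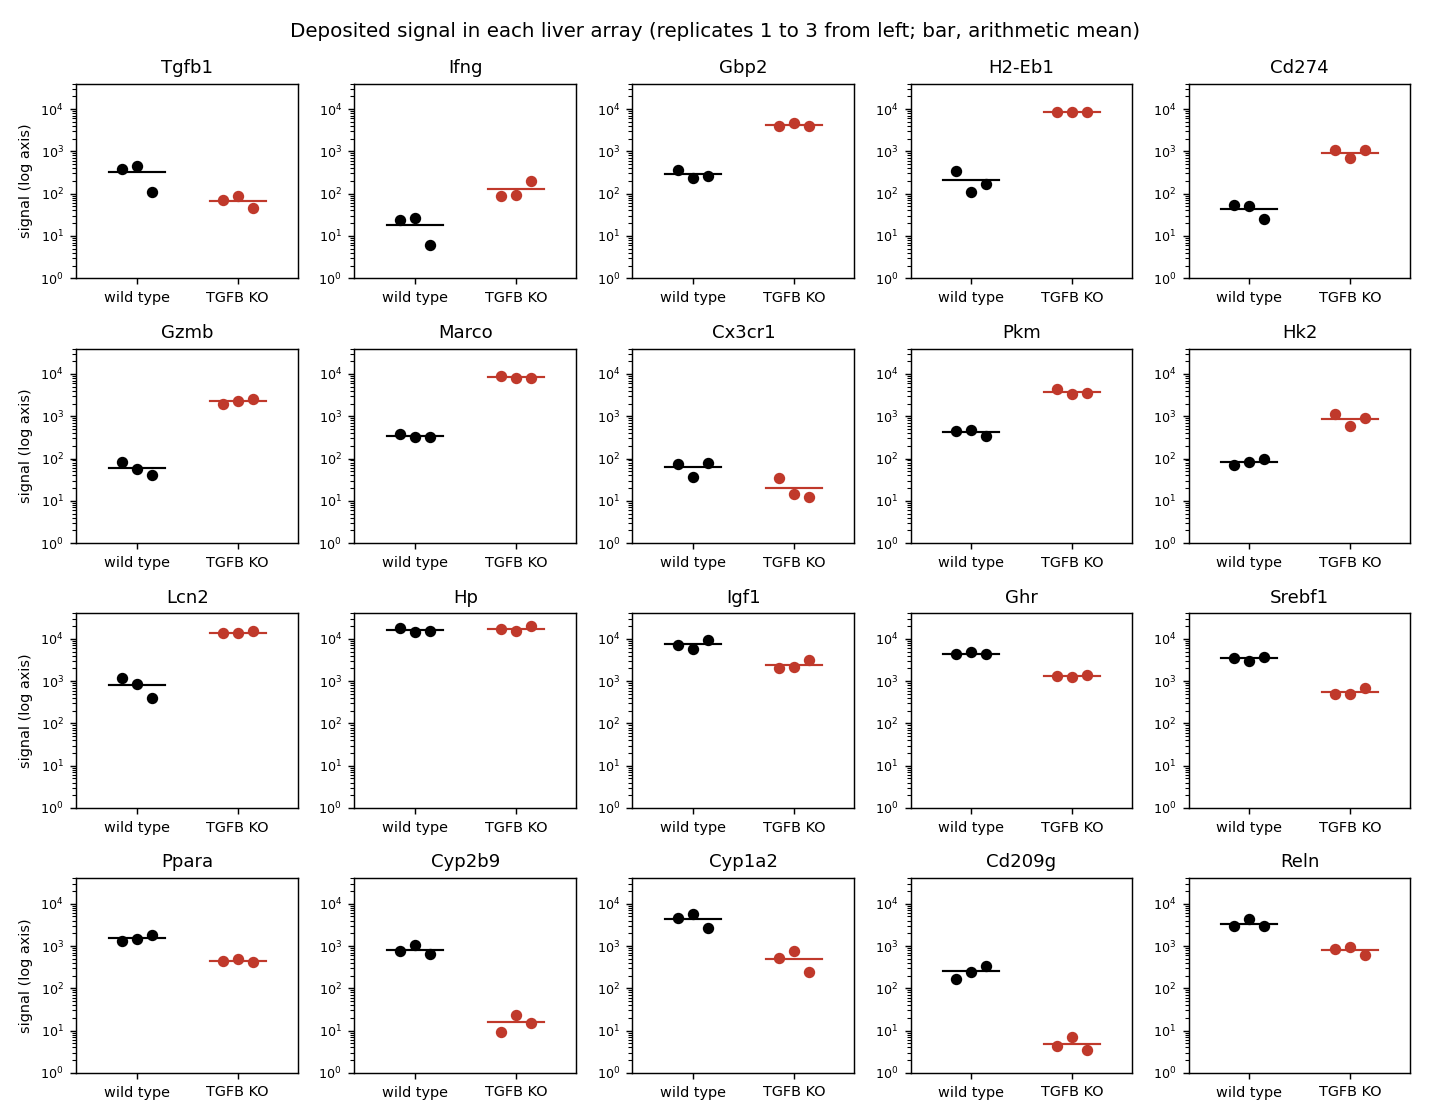
Deposited signal (log axis, arbitrary units) of 20 genes in the 3 wild type (black) and 3 TGFB KO (red) liver arrays, replicates 1 to 3 from left to right, with a bar at the arithmetic mean. H2-Eb1, Gbp2, Marco and Gzmb stand far above wild type in each TGFB KO array, Cyp2b9 and Cd209g far below it, and Hp is at the same level in both.

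Antigen presentation rose in its specialised parts and not in its general ones. Of 13 genes of MHC class II presentation 10 were higher (median 2.73). H2-Eb1, a class II beta chain, went from 339, 107 and 172 to 8698, 8662 and 8484 (5.35 ± 0.36), so that the 3 TGFB KO arrays nearly coincided. Its master regulator Ciita went from 31.5, 46.1 and 9.24 to 470, 329 and 114 (2.73 ± 0.53, limma adjusted p = 0.00338; 1.76 without TGFB KO 1). The DNA-binding partners with which Ciita works, Rfx5, Rfxank and Rfxap, had 0.12, -0.08 and -0.57 and were not called. Of 17 genes of class I presentation 13 were higher (median 1.5). Tap1, which pumps peptides into the endoplasmic reticulum, went from 210, 156 and 126 to 1149, 1247 and 1171 (2.71 ± 0.33). The immunoproteasome subunits Psmb8, Psmb9 and Psmb10 rose by 2.40 ± 0.21, 2.58 ± 0.26 and 1.64 ± 0.15, while the constitutive subunits whose places they take, Psmb5, Psmb6 and Psmb7, had -0.22 ± 0.18, 0.05 ± 0.15 and -0.11 ± 0.16 and were not called. Psmb9 had signals of 730, 535 and 471 in wild type and 3484, 3685 and 3134 in TGFB KO, and Psmb6 had 1612, 1860 and 1637 and 1592, 1782 and 1730. Over all 31 constitutive proteasome genes 3 were higher (median 0.04), and 1 was under the deposited scaling, under median centring, in both fits over 6 arrays, and without wild type 3 or TGFB KO 2. Erap1 and the general chaperones Calr, Pdia3 and Canx, which also serve class I, had 0.70, 0.13, -0.01 and -0.09 and were not called.

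**Figure D3:**
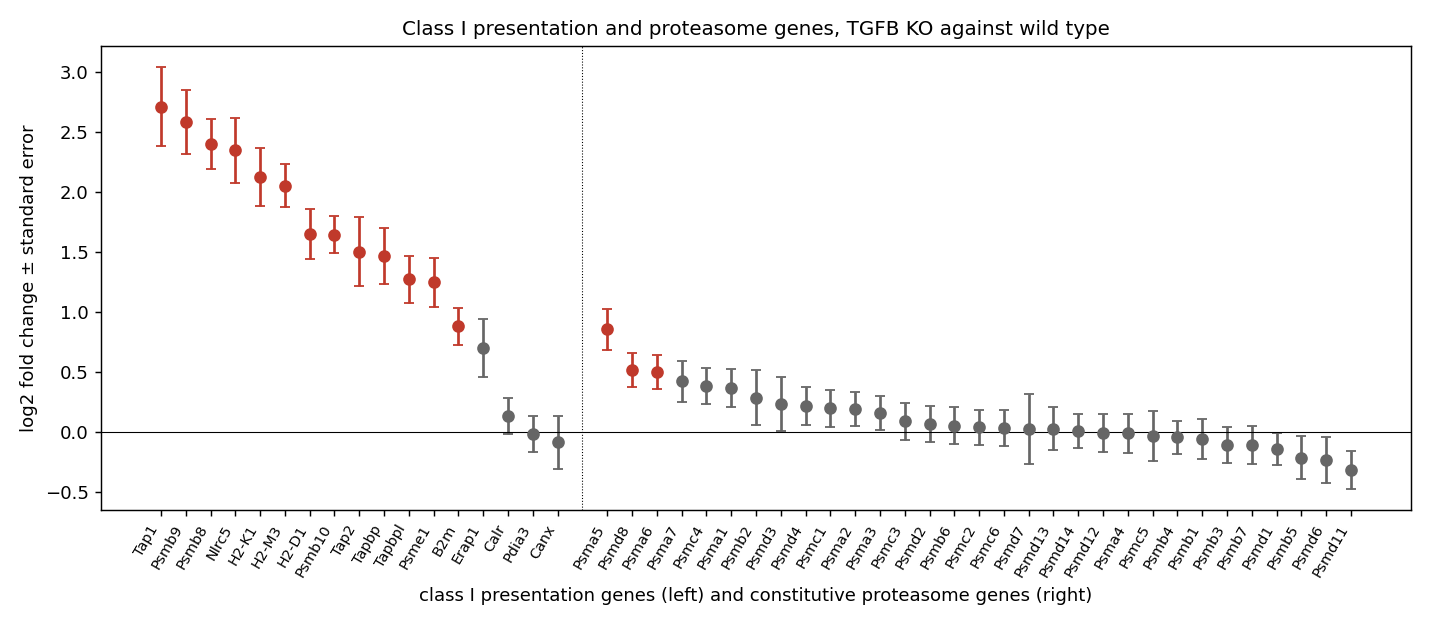
Log2 fold change ± standard error (TGFB KO against wild type, 3 arrays each) of the 17 tested class I presentation genes (left) and the 31 constitutive proteasome genes (right), each ordered by value. Red marks calls, and 13 genes on the left and 3 on the right are red.

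Signals that stop or start T cells moved together with presentation. Of 12 costimulatory and coinhibitory ligand genes 7 were higher and 0 lower. Cd274, which encodes the inhibitory ligand PD-L1, went from 53.9, 50.8 and 24.7 to 1067, 686 and 1062 (4.0 ± 0.30), and the costimulator Cd86 from 62.4, 37.5 and 73.0 to 247, 220 and 423 (2.01 ± 0.27). Cd80, its relative, was not called (0.09 ± 0.25). Of 23 chemokine genes 16 were higher and 1 lower (median 2.33). Cxcl9, which draws CXCR3-bearing T cells, went from 276, 106 and 302 to 6135, 5350 and 6906, and Ccl24, which draws eosinophils, from 107, 114 and 103 to 1056, 963 and 1317 (3.10 ± 0.27). The one that fell was Cxcl12, a chemokine that retains cells in tissue: 2682, 2351 and 1822 in wild type and 658, 568 and 558 in TGFB KO (-1.86 ± 0.26, limma adjusted p = 0.000435). Its receptor gene Cxcr4 was not called (0.89). Among 12 chemokine receptors 6 were higher, led by Ccr1 (14.4, 42.7 and 15.2 against 462, 361 and 679, 3.69 ± 0.38), and 1 was lower. That was Cx3cr1, at -1.10 ± 0.37 with limma adjusted p = 0.0480, a call that was lost (adjusted p from 0.128 to 0.145) on leaving out wild type 1, wild type 3, TGFB KO 2 or TGFB KO 3. Its call was also lost under the deposited scaling, with quantile normalization over 6 arrays, without a filter and with a constant of 64 (-0.58, limma adjusted p = 0.0732). Of 15 leukocyte adhesion genes 13 were higher, including the endothelial ligands Vcam1 (825, 834 and 621 against 2919, 3994 and 3167, 2.16 ± 0.25) and Icam1 (2.00 ± 0.18) and the leukocyte integrin chain Itgb2 (2.70 ± 0.21).

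Markers of T cells, killer cells and myeloid cells were higher, and those of B cells were not. Of 19 T cell receptor and signalling genes 16 were higher (median 1.62), and the summed signal of the list was 1083 to 1709 in wild type and 6441 to 7390 in TGFB KO. Cd3d, a chain of the receptor complex, went from 19.8, 42.4 and 39.9 to 204, 230 and 198 (2.20 ± 0.39). Both coreceptor chains were called, Cd4 at 1.62 and Cd8b1 at 1.5 ± 0.30, but Cd4 lost the call when any array but TGFB KO 3 was left out (limma adjusted p between 0.0518 and 0.0968). Of 17 cytotoxic and NK genes 15 were higher. Gzmb, a granule protease of killer cells, went from 81.1, 57.2 and 41.3 to 1995, 2262 and 2610. Of 13 genes of T cell activation and checkpoints 9 were higher, and 1 with a filter at the 60th percentile, which tests fewer of them. The filter takes the mean over all arrays, so a gene near background in wild type could be tested through its level in TGFB KO. Counts over tested members of dim lists can therefore lean to rises. In this list 13 of 18 genes with a probe set were tested, in the cytotoxic list 17 of 20 and among chemokine receptors 12 of 20. Tnfrsf9, a costimulatory receptor of activated T cells, went from 24.4, 3.91 and 31.8 to 324, 326 and 329 (3.35 ± 0.30), and the inhibitory receptor Lag3 from 24.9, 10.2 and 5.63 to 79.9, 80.0 and 69.2 (1.75 ± 0.31). These receptor signals are low, and with a constant of 64 they were 2.22 and 0.90.

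Of 17 B and plasma cell markers 2 were higher and 0 lower (median -0.09). Prdm1, a transcription factor of plasma cells that activated T cells also express, rose by 2.09 ± 0.28, and Bank1 by 0.70 (limma adjusted p between 0.0584 and 0.116 without wild type 2, TGFB KO 1 or TGFB KO 3). Bank1 also lost the call without a filter and in both fits over 6 arrays. The B cell genes Cd79a, Ms4a1 and the complement receptor gene Cr2 had -0.56, 0.07 and -0.29 and were not called. The summed B and plasma cell signal was 4740 to 6083 in wild type and 4211 to 6647 in TGFB KO, so the groups overlapped. Kupffer cells are the resident macrophages of the liver, and 21 of 25 markers of them and of other macrophages were higher (median 2.41), with sums of 12857 to 16993 and 69487 to 78076. Marco, a scavenger receptor, went from 372, 318 and 316 to 9019, 8069 and 7935 (4.52 ± 0.21). The markers that are most restricted to Kupffer cells rose as well, Timd4 from 72.6, 84.6 and 102 to 530, 569 and 575 (2.41 ± 0.21), Clec4f from 1242, 852 and 1098 to 3155, 3100 and 2771 (1.54 ± 0.18) and Vsig4 from 1125, 924 and 1768 to 2242, 2654 and 3580 (1.21 ± 0.23). Folr2 and Trem2, members of the same list, were not called (-0.10 and 0.15). Of 23 neutrophil and monocyte markers 18 were higher. Clec4e, a myeloid receptor for damaged cells and mycobacterial lipid, was near background in wild type (2.23, 0.961 and 0.742) and at 280, 192 and 401 in TGFB KO. It was called higher, with a size that the added constant sets (6.99 with a constant of 1 and 2.38 with 64). Ltf and Camp, granule genes of maturing neutrophils, had 0.29 and 0.48 and were not called.

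Sensors of microbes and effectors of inflammatory cell death were higher. Of 32 Toll-like receptor, NF-kB and inflammasome genes 25 were higher and 0 lower (median 1.61). Il1b went from 93.1, 52.6 and 80.9 to 1462, 910 and 1317, and so did the natural brakes on its family, the receptor antagonist Il1rn from 49.6, 46.1 and 54.3 to 368, 410 and 766 (2.89 ± 0.25) and Il18bp, which binds interleukin 18, from 199, 118 and 147 to 1144, 1568 and 1624 (3.04 ± 0.26). Of the receptors, Tlr1, Tlr2, Tlr4 and Tlr6 rose by 2.64, 1.70, 1.66 and 1.41, and Tlr3, Tlr5 and Tlr9 were not called. Among 30 genes of death receptors, caspases and p53 targets 21 were higher and 0 lower (median 1.29). The necroptosis genes Ripk3 (88.5, 63.6 and 43.5 against 402, 348 and 579, 2.42 ± 0.27) and Mlkl (20, 94.9 and 79.4 against 593, 546 and 550, 2.96 ± 0.43) and the pyroptosis genes Casp4 (3.05 ± 0.26) and Gsdmd (1.44 ± 0.18) rose. Of the apoptosis receptor and its caspase, Fas had -0.15 ± 0.27 and Casp8 0.43 ± 0.18, and neither was called. Fasl, the ligand made by killer cells, rose by 1.31, and the mitochondrial apoptosis genes Bid and Bcl2l11 rose by 1.37 and 0.97. The p53 targets were split. Pmaip1, which triggers apoptosis, rose by 2.91 (1.77 with a constant of 64) and Trp53inp1 by 1.40, whereas Mdm2, Cdkn1a, Bbc3 and Phlda3 were not called (0.34, 0.77, -0.45 and -0.27). Ccng1 was called at 0.70 (0.40 and not called as the mean of its probe sets), but not without wild type 3, TGFB KO 1 or TGFB KO 2 (limma adjusted p between 0.0544 and 0.0774). Under median centring it was not called either.

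Plasma proteins of the acute phase did not move as a block. Of 24 such genes 11 were higher and 0 lower, with a median of 0.32. Among those that rose, Orm1 went from 80.7, 3.30 and 34.2 to 6908, 4456 and 12460, Saa2 went from 61.7, 19 and 76.3 to 306, 252 and 1790, and Lcn2, which withholds iron from bacteria, went from 1174, 871 and 396 to 13763, 13403 and 14999. In Orm1, Orm2, Saa1 and Saa2 TGFB KO 3 was the highest array, and Orm2 was 366 and 373 in TGFB KO 1 and 2 but 2488 in TGFB KO 3. Several abundant plasma protein genes were not called, with haptoglobin (Hp) at 17688, 14783 and 14949 against 16637, 15404 and 20230 (0.32 ± 0.14), the fibrinogen gene Fgb at 0.26 ± 0.14 and Crp at 3495, 3571 and 3586 against 2461, 2314 and 2495 (-0.45 ± 0.25). Within interleukin 6 signalling, which drives these genes, 8 of 16 were higher. They include Stat3 (1.03 ± 0.17), the transcription factor Cebpb (1.6 ± 0.19) and Osmr, the oncostatin M receptor (1.73 ± 0.25), while Il6 itself (0.65 ± 0.44) and its receptor Il6ra (-0.01) were not called. The metal-binding metallothioneins Mt1 (1438, 1596 and 4063 against 12333, 11637 and 17625, 2.76 ± 0.39) and Mt2 (4.45 ± 0.53) rose, as did Hmox1, which degrades haem (257, 182 and 196 against 3466, 1954 and 2187, 3.41 ± 0.32). In the redox list of 20 they are among 6 higher and 5 lower genes, and 1 to 3 were lower without wild type 1, wild type 3, TGFB KO 1 or TGFB KO 3. Among those lower was Prdx4, a peroxidase of the secretory pathway (4435, 5002 and 3954 against 1291, 2008 and 1171, -1.53 ± 0.23).

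**Figure D4:**
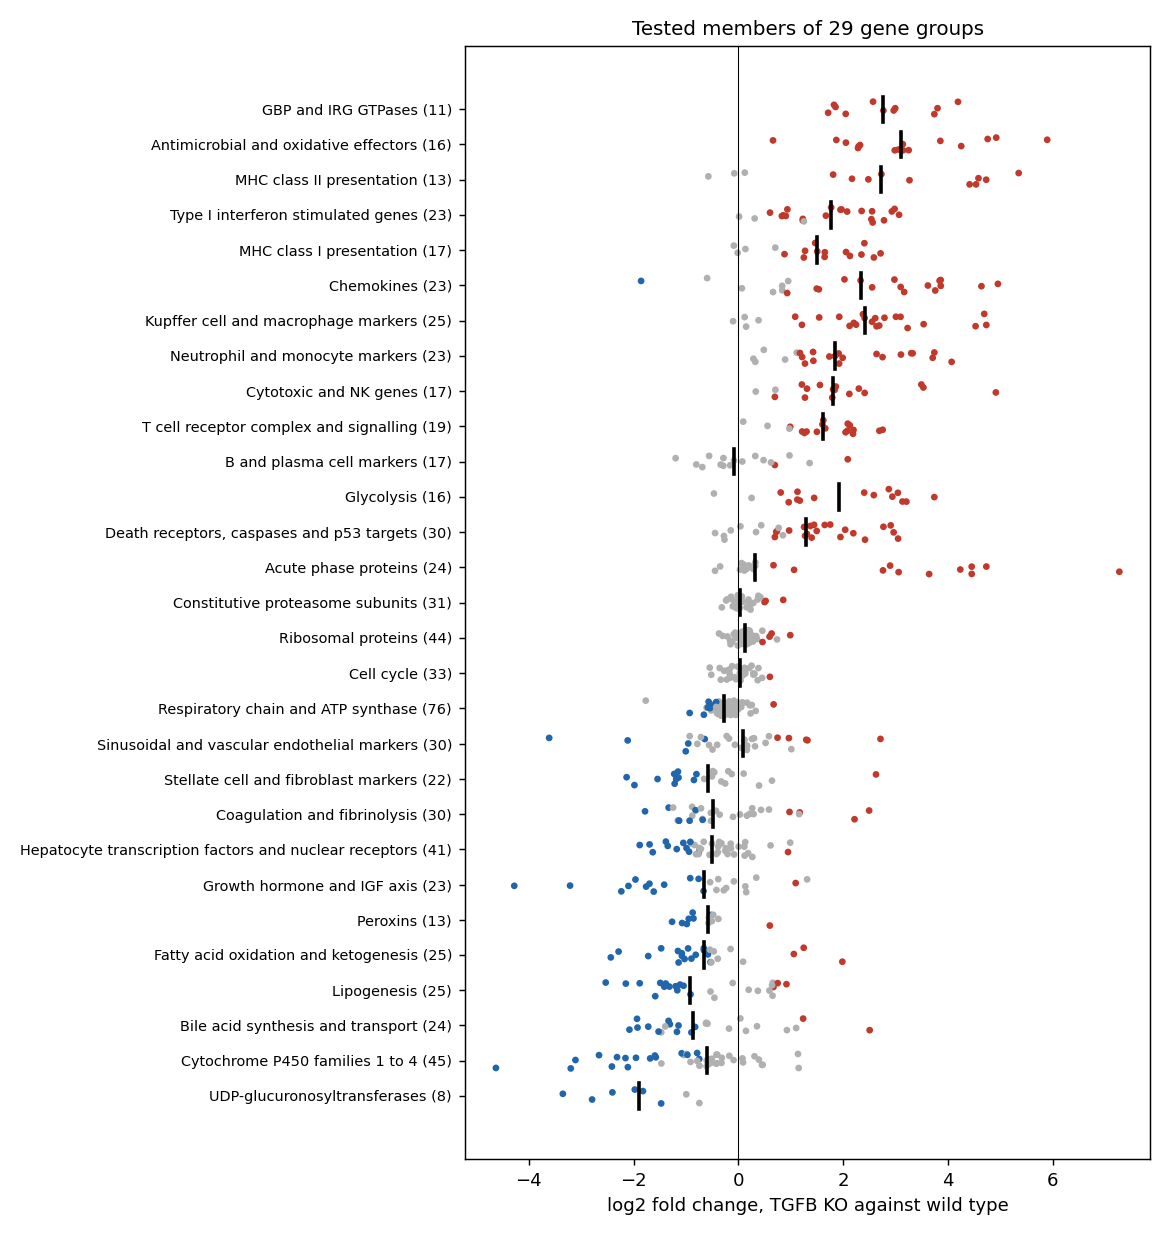
Log2 fold change (TGFB KO against wild type) of each tested member of 29 gene groups, with the number tested in parentheses; red marks members called higher, blue lower, grey neither, and the black bar the median of the group. The medians run from 3.10 for antimicrobial and oxidative effectors to -1.90 for UDP-glucuronosyltransferases, and those of the proteasome, ribosomal and cell cycle groups lie within 0.13 of 0.

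Glycolysis, the breakdown of glucose to pyruvate, was one of the metabolic pathways that rose. Of 16 tested genes 14 were higher and 0 lower, with a median of 1.92. Pklr, Gckr and Slc2a2, given below, were not members of this list, so their falls do not enter its counts. Slc2a1, the glucose transporter GLUT1, went from 165, 274 and 270 to 2429, 1280 and 2295 (2.94 ± 0.27). Hk2, a hexokinase that traps glucose, went from 70.4, 83.6 and 97.1 to 1149, 583 and 894 (3.04 ± 0.26), and the related Hk3 and Hk1 rose by 2.58 ± 0.39 and 1.44. These rises were several-fold in each TGFB KO array. Pfkp, the platelet form of phosphofructokinase, went from 74.8, 88.2 and 61 to 1385, 985 and 1423 (3.74 ± 0.28), and Pkm, the pyruvate kinase of most tissues other than liver, from 444, 485 and 336 to 4520, 3312 and 3592 (3.13 ± 0.26). The lactate exporter Slc16a3 rose by 3.20 ± 0.68 from 71.3, 29.1 and 5.77 to 921, 522 and 124. Of the enzymes that most cells share, Aldoa, an aldolase, rose by 2.4, Pgk1 by 1.17, Tpi1 by 1.13 and Pgam1 by 0.96, and the abundant Ldha was not called (10689, 13190 and 9828 against 13627, 13784 and 11624, 0.25 ± 0.17). Hif1a, a transcription factor that drives the pathway, rose by 0.81 ± 0.17 (0.53 as the mean of its probe sets).

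Some of the isoforms that hepatocytes use did not follow. Pklr, the liver pyruvate kinase, was lower (574, 735 and 319 against 230, 251 and 100, -1.46 ± 0.41), with limma adjusted p = 0.0225, but 0.0677 to 0.0872 without wild type 1, wild type 2 or TGFB KO 3. Gckr, the regulator of the hepatocyte hexokinase, went from 3305, 2620 and 2580 to 789, 862 and 1073 (-1.56 ± 0.34), and Slc2a2, the glucose transporter of hepatocytes, was not called (-0.71). Of 16 genes of gluconeogenesis and glycogen 5 were lower and 0 higher, or 3 lower without wild type 2 or TGFB KO 3. The glycogen phosphorylase Pygl was among them (-1.01 ± 0.22), and the gluconeogenic enzyme genes G6pc, Pck1 and Fbp1 were not called (-0.40, -0.43 and -0.29). Hk1, Hk3, Pfkp, Pkm and Slc2a1 are also expressed in leukocytes, whose marker sums rose as given above, and the part of those cells in the rise of glycolysis was not tested.

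The growth hormone and IGF axis was lower at several of its steps. Of 23 tested genes 12 were lower, where 11.9% of all genes were, and 1 was higher, with a median of -0.67. Under median centring 9 were lower, and with 1 array left out 9 to 11 were. The receptor gene Ghr went from 4352, 4812 and 4314 to 1321, 1221 and 1396 (-1.70 ± 0.42, limma adjusted p = 0.0125). Of its 2 further probe sets 1 was called (-1.93 ± 0.44) and 1 was not (-1.66 ± 0.55, limma adjusted p = 0.0611). In the kinase and Stat step, Jak2 rose by 1.09 ± 0.18, and Stat5a and Stat5b were not called (-0.39 and -0.42). The target and feedback inhibitor Socs2 went from 1005, 1529 and 1766 to 300, 360 and 271 (-2.10 ± 0.22, or -1.29 as the mean of its probe sets). Igf1, the hormone that liver sends to the body, went from 7162, 5760 and 9632 to 2037, 2176 and 3088 (-1.62 ± 0.33, limma adjusted p = 0.00422), and its 3 further probe sets were called lower as well, at -1.68, -1.92 and -1.43.

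Both partners of IGF-1 in its large circulating complex fell with it. Igfals, the acid-labile subunit, went from 2030, 1430 and 1310 to 76.9, 40 and 67.8, and Igfbp3, the third member of that complex, from 656, 737 and 769 to 247, 210 and 161 (-1.76 ± 0.18). Thus ligand, subunit and binding protein of the circulating complex were each below wild type in all 3 TGFB KO arrays. Igfbp1, a binding protein that insulin represses, was at 2360, 11270 and 11012 in wild type and at 13240, 15326 and 17999 in TGFB KO, without a call (1.31 ± 0.48, limma adjusted p = 0.0713), and Igfbp2 had 0.15. Irs1, an adaptor of the insulin and IGF receptors, fell by 2.23 ± 0.32 and Insr, the insulin receptor, by 0.76 (limma adjusted p = 0.0552 under median centring), while Irs2 and Igf1r were not called (0.13 and 0.34). Igf2, the fetal growth factor, went from 17802, 14190 and 14684 to 7499, 2637 and 2672 (-1.96 ± 0.34), with TGFB KO 1 between the other arrays. None of 21 members with a RefSeq promoter held the response element core and 2 held TTCNNNGAA, beside 2.61% and 6.01% of all. These are Igfals and Keg1, a gene related to glycine N-acyltransferases (389, 411 and 560 against 12.4, 53.5 and 41.9). Their promoters, at chr17:24877594-24877843 and chr19:12695540-12695789, both on the plus strand, are shown as the steepest falls of the list, with the matches in capitals.
Igfals: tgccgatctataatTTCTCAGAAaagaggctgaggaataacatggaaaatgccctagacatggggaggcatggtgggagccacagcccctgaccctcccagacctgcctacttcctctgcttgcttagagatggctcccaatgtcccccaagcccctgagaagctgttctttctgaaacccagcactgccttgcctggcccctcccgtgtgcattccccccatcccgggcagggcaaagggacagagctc
Keg1: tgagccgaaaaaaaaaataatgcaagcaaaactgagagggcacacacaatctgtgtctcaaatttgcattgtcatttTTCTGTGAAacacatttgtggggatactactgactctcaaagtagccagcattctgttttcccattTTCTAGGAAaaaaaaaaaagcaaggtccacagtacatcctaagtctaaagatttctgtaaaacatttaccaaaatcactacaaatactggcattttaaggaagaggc

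**Figure D5:**
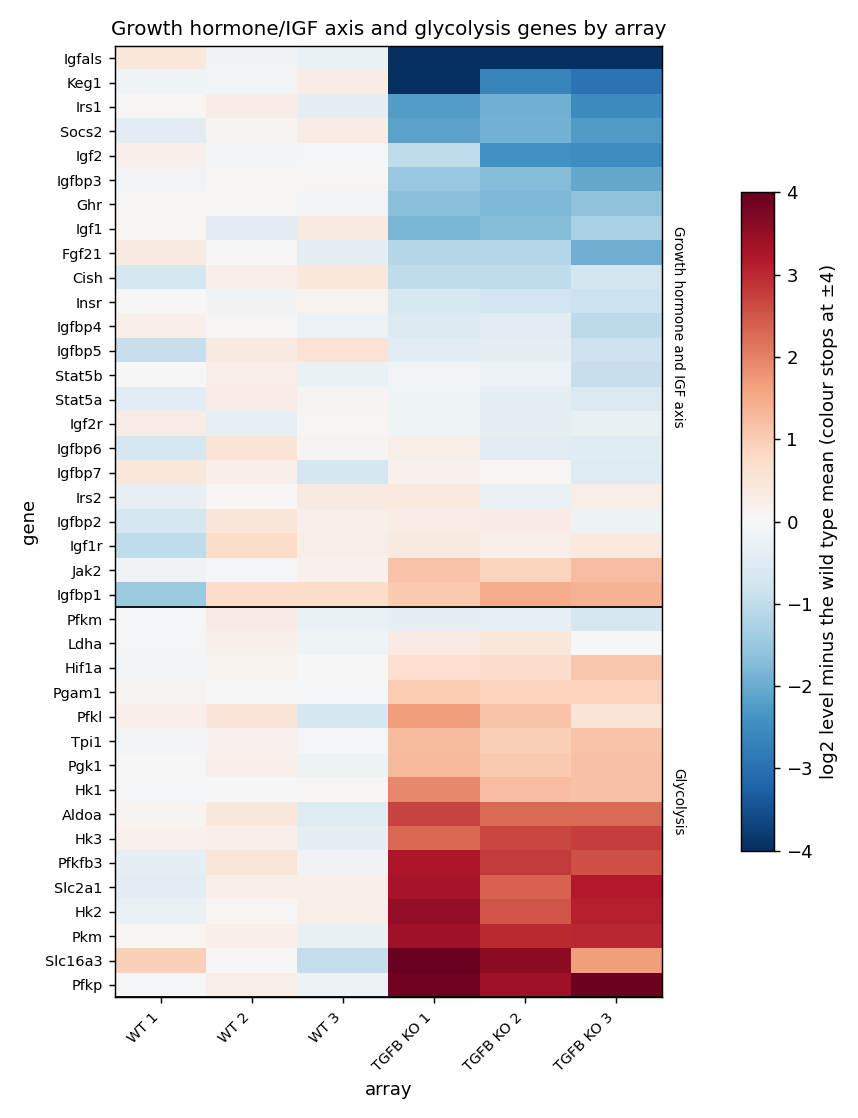
Log2 level minus the mean of the 3 wild type arrays, in each of the 6 arrays, for the 23 tested genes of the growth hormone and IGF axis and the 16 of glycolysis, each ordered by fold change; blue is below and red above the wild type mean, and the colour scale stops at 4 in either direction. The TGFB KO columns are blue for Igfals to Cish and red for Hif1a to Pfkp.

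Fat synthesis and fat oxidation were both lower. Of 25 lipogenesis genes 13 were lower and 3 higher (median -0.91), or 1 higher with the mean of the probe sets of each gene. Srebf1, the transcription factor that insulin uses to turn the pathway on, went from 3560, 3007 and 3810 to 500, 496 and 684, and Mlxipl (ChREBP), which answers to glucose, from 1290, 1272 and 923 to 360, 387 and 189 (-1.88 ± 0.30). Among their targets, Fasn, the fatty acid synthase, fell by 1.17 ± 0.25, Acaca, which makes its substrate, by 1.2 ± 0.22, and the desaturase gene Fads2 fell by 1.59 ± 0.31, while Scd1 and Acly were not called (0.20 and 0.37). The fatty acid uptake receptor Cd36, which macrophages express as well, rose from 298, 325 and 225 to 580, 627 and 493 (0.92 ± 0.22). Of 25 genes of fatty acid oxidation and ketogenesis 16 were lower and 3 higher (median -0.66), or 10 lower without wild type 1, TGFB KO 1 or TGFB KO 3. Ppara, the nuclear receptor that governs them, went from 1289, 1457 and 1825 to 437, 501 and 413. The peroxisomal thiolase Acaa1b went from 11808, 11662 and 14085 to 2472, 2773 and 2067, and the mitochondrial Acads and Bdh1 fell by 1.08 ± 0.20 and 1.47 ± 0.27. The 3 that rose, which Ppara also governs, were Acot1 (1.98 ± 0.42), Pdk4 (1.25 ± 0.29), which keeps pyruvate out of the citric acid cycle, and Angptl4 (1.06 ± 0.23). Cpt1a, the gate to mitochondrial oxidation, had -0.66 ± 0.21, with limma adjusted p = 0.0378 that rose to between 0.0781 and 0.127 without wild type 1, wild type 2, TGFB KO 1 or TGFB KO 3. Its call was also lost under median centring, without a filter, with the mean of its probe sets and in both fits over 6 arrays.

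Organelle genes outside these pathways were also read. Of 13 peroxins, which build peroxisomes, 7 were lower and 1 higher (median -0.57), but 3 and 0 under median centring, and 4 and 0 without wild type 1, TGFB KO 1 or TGFB KO 2. Pex7, the import receptor for thiolase, went from 1182, 1056 and 1349 to 356, 568 and 556 (-1.27 ± 0.25). Of 76 genes of the respiratory chain and ATP synthase 7 were lower and 1 higher (median -0.27), beside 11.9% lower of all genes. Without wild type 1, wild type 2, TGFB KO 1 or TGFB KO 2, 2 to 4 were lower and 0 higher. Under the other settings the count lower ran from 1 (median centring) to 15, so its place beside the share of all genes depends on the processing. For 44 ribosomal protein genes the median was 0.13 with 4 higher and 0 lower, and 1 to 2 were higher under median centring and without wild type 1, TGFB KO 1 or TGFB KO 3.

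Of 22 genes of cholesterol synthesis and uptake 7 were lower and 1 higher (median -0.49). Hmgcs1, an early enzyme of the pathway, went from 4774, 3618 and 4880 to 1603, 1700 and 1689 (-1.32 ± 0.21), and the sterol reductase Tm7sf2 from 710, 445 and 1077 to 105, 169 and 158 (-2.18 ± 0.38), while the regulator Srebf2 was not called (-0.35 ± 0.44). In bile acid synthesis and transport 11 of 24 genes were lower and 2 higher (median -0.86), or 7 and 1 without TGFB KO 1. The canalicular exporters were among them: Abcb11, for bile salts, went from 2362, 3062 and 2331 to 768, 1070 and 1146 (-1.31 ± 0.29), and Abcg5 and Abcg8, which form the sterol exporter, fell by 1.93 ± 0.41 and 1.52 ± 0.34. Cyp7a1, the rate-limiting enzyme of bile acid synthesis, lay at 789, 1122 and 867 in wild type and at 266, 313 and 386 in TGFB KO. Its groups did not overlap, and with -1.47 ± 0.63 it was not called (limma adjusted p = 0.114); its standard error comes from the spread over all 4 groups. The uptake transporter Slc10a1 was not called either (-0.62 ± 0.42). The bile acid sensor Nr1h4 (FXR) fell by 0.94 ± 0.20. Baat rose against the list, from 74.2, 31.7 and 105 to 396, 541 and 445.

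Among genes that clear foreign compounds and steroids more were lower than higher. Of 45 cytochrome P450 genes of families 1 to 4, 16 were lower and 0 higher (median -0.61), as were 6 of 8 UDP-glucuronosyltransferases (median -1.90; 3 without TGFB KO 1) and 6 of 11 carboxylesterases (median -0.92). Of 21 glutathione S-transferases 9 were lower and 1, Gstp1, was higher (0.54), which missed the threshold without wild type 3, TGFB KO 1 or TGFB KO 2 (limma adjusted p between 0.0543 and 0.0756). Gstp1 also missed it under median centring, without a filter and in both fits over 6 arrays. Of 28 aldo-keto reductases and hydroxysteroid dehydrogenases 15 were lower and 2 higher, Akr1b8 at 1.33 and Akr1b10 at 1.12. Of 23 aldehyde and alcohol dehydrogenases 11 were lower, or 6 to 7 under median centring and without wild type 1, wild type 2, TGFB KO 1, TGFB KO 2 or TGFB KO 3, and 1 was higher. That was Aldh18a1, which makes proline precursors (1.81, but 0.65 and not called as the mean of its probe sets). Cyp2b9 had 761, 1043 and 638 in wild type and 9.11, 23.5 and 15.5 in TGFB KO, and Cyp2b10, a target of the xenobiotic receptor CAR, had 293, 203 and 160 and 4.09, 17.3 and 7.38. Within the Cyp2c genes, Cyp2c55 (212, 311 and 280 against 26.8, 60.4 and 26.3, -2.41 ± 0.46) and Cyp2c23 (-2.32 ± 0.52) fell, and Cyp2c29 and Cyp2c37 were not called (-0.74 and -1.05). The abundant Cyp3a11 was not called (-0.32 ± 0.30). Probe sets for close members of these families may share target RNA, so that the members cannot be counted as separate measurements. Ugt2b1 went from 3172, 3191 and 3216 to 356, 475 and 459, and Gsta4, which detoxifies lipid aldehydes, from 1582, 1889 and 1660 to 319, 476 and 389 (-2.07 ± 0.20). Of 56 transporter genes of the SLC22, SLCO and ABC families 19 were lower and 6 higher, with the organic anion transporter Slc22a7 at 2954, 2918 and 2362 against 276, 342 and 413 (-2.89 ± 0.56) and the cholesterol exporter Abcg1, which macrophages use, rising by 2.09.

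Regulators of hepatocyte identity were lower in part. Of 41 transcription factors and nuclear receptors 12 were lower and 1 higher (median -0.50). Foxa2 went from 304, 493 and 327 to 128, 114 and 86.8 (-1.63 ± 0.33) and Nr0b2 (SHP), the repressor induced by bile acids, from 1088, 934 and 1007 to 302, 426 and 423. Hnf4a, the central factor of the network, lay at 2040, 2261 and 2390 against 1436, 1742 and 1818 without a call (-0.37 ± 0.25), and Rxra, Nr3c1 and Nr5a2 had -0.15, -0.08 and -0.39. Hepatocytes differ along the lobule from the portal to the central vein. Of 19 pericentral genes 5 were lower and 1 higher (median -0.91), or 3 lower without TGFB KO 1 and 5 to 10 under the other settings. Of 18 periportal genes 2 were lower and 4 higher (median -0.13). The difference of these medians was not tested. Lect2, a secreted pericentral protein, went from 10872, 8855 and 8196 to 1132, 1272 and 1441 (-2.82 ± 0.46) and Lgr5, a receptor that amplifies Wnt signals, fell by 1.63 ± 0.34, while Glul and Axin2, further Wnt targets, were not called (-0.47 and -0.69). A second, dimmer probe set of Glul was called lower (-0.98 ± 0.19, limma adjusted p = 0.00494). Of the periportal genes Pigr, which carries IgA into bile, rose from 201, 107 and 142 to 2245, 2304 and 1558 (3.59 ± 0.28), and the urea cycle genes Cps1 and Ass1 were not called (0.30 and -0.23). Otc and Arg1, also of that cycle, were called. Otc lost the call with any of the 6 arrays left out, and Arg1 without wild type 1, wild type 2 or TGFB KO 3. In the list of urea cycle and amino acid catabolism 6 of 27 genes were lower and 1 higher (median -0.47). With 1 array left out 1 to 3 were lower, and 3 to 10 under the other settings.

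For the most abundant hepatocyte transcripts the values depended on the normalization. Quantile normalization gives the brightest probe sets of every array the same value, so Apoa1, the brightest gene, has a fold change of 0 by construction, although its signals were 40503, 36372 and 35827 in wild type and 25806, 24657 and 26963 in TGFB KO. Under the deposited scaling Apoa1 had -0.54 ± 0.17 (limma adjusted p = 0.0409), and the median of the 20 brightest genes was -0.29, with 1 of the 20 called. Alb went from 29172, 27226 and 26913 to 21864, 20398 and 25518, with 0.07 ± 0.14 after quantile normalization and -0.30 ± 0.18 under the deposited scaling, neither called. A summed signal of 6 such hepatocyte transcripts was 142992 to 151510 in wild type and 108240 to 127698 in TGFB KO. Of 22 carrier proteins and apolipoproteins 6 were lower, or 2 to 3 without wild type 3, TGFB KO 1, TGFB KO 2 or TGFB KO 3, and 1 was higher, Apoa4 (716, 1024 and 589 against 6464, 4530 and 4259, 2.69 ± 0.27), which packages dietary and hepatic fat.

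Complement and clotting genes were called in both directions, and the counts lower depended on the processing. Of 23 complement genes 9 were higher and 3 lower (median 0.19), with 3 to 8 lower under settings other than left-out arrays. Macrophages make the C1q chains, and C1qa went from 974, 796 and 987 to 5456, 5216 and 6068. Of the membrane attack complex, C6 rose from 120, 63.0 and 57.2 to 1314, 1299 and 1309 (3.77 ± 0.37) and C8g fell from 4482, 4064 and 4639 to 995, 774 and 973 (-2.18 ± 0.44), whereas C8a, C8b and C9 were not called (-0.89, 0.19 and -0.09). Of 30 coagulation and fibrinolysis genes 4 were higher and 7 lower, or 3 to 5 lower with any 1 array left out and 2 higher without TGFB KO 1 or TGFB KO 3. Under the other settings 5 to 13 were lower. Proc, which encodes the anticoagulant protein C, went from 6187, 6926 and 6579 to 2646, 2827 and 2296 (-1.33 ± 0.30), the clotting factor gene F7 fell by 1.13 ± 0.27, and F13a1, which macrophages make, rose by 2.49 ± 0.31. Prothrombin (F2) and plasminogen (Plg) were not called (-0.52 and -0.71).

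Markers of stellate cells, the vitamin A-storing pericytes of the sinusoid, were lower. Of 22 stellate cell and fibroblast markers 10 were lower and 1 higher (median -0.58), with sums of 16504 to 18961 in wild type and 14715 to 16443 in TGFB KO. Reln went from 2941, 4271 and 2978 to 858, 937 and 620, Tcf21, a transcription factor of these cells, from 740, 938 and 649 to 225, 293 and 254 (-1.54 ± 0.23, or -0.88 as the mean of its probe sets), and Lrat, which stores vitamin A as ester, from 377, 376 and 398 to 141, 189 and 182. The member that rose was Vim, which leukocytes also express (1266, 1005 and 706 against 6238, 6154 and 6541). Its signal is part of the sums given above, so these understate the fall of the other members. The activation markers Acta2 and Tagln and the receptors Pdgfra and Pdgfrb were not called (-0.33, -0.49, 0.10 and 0.64). Of 33 genes of the matrix and its proteases 7 were higher and 3 lower (median 0.24), where 12.2% and 11.9% of all genes were, with Col1a1 at 1064, 1358 and 466 against 1746, 1556 and 753 (0.55 ± 0.52) and Col3a1 at -0.41 ± 0.21. Of 27 tested genes of the collagen family 3 were higher and 5 lower (median -0.07), or 1 higher without TGFB KO 1. Among these calls were Col5a3 (1.01, or 0.54 with a constant of 64) and Col4a4 (-1.80, or -0.84 with that constant). The calls in the matrix list included proteases and their inhibitors. The macrophage elastase Mmp12 went from 40, 1.85 and 4.84 to 751, 447 and 994 (4.69 ± 0.41), the collagenase Mmp13 from 29.7, 2.11 and 11.7 to 761, 367 and 1017 (4.59 ± 0.46), and the inhibitor Timp3 from 141, 91.7 and 66.1 to 1046, 645 and 852 (2.84 ± 0.29), whereas Mmp2, the gelatinase of stellate cells, fell from 316, 336 and 332 to 79.0, 76.7 and 99.9 (-1.76 ± 0.23).

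Endothelial markers were called in both directions at shares near those of all genes (12.2% higher and 11.9% lower). Of 30 markers 5 were higher and 5 lower (median 0.08), and 2 to 3 were higher without wild type 1, wild type 3, TGFB KO 1 or TGFB KO 2. Clec1b, a lectin receptor also found on platelets and Kupffer cells, went from 253, 297 and 277 to 1504, 2285 and 2051 (2.71 ± 0.20) and Lyve1, a hyaluronan receptor of the sinusoid, rose by 1.32 ± 0.22. The lectin genes Cd209g and Cd209f fell, from 163, 246 and 344 to 4.41, 6.93 and 3.46 and from 150, 155 and 250 to 15.6, 54.8 and 25.2 (-2.11 ± 0.29). Rspo3, a Wnt amplifier of the central vein, fell by 1.00 ± 0.23. Stab2, Kdr, Flt4 and Tie1, which mark the same cells, were not called, and Stab2 lay at 1021, 965 and 1036 against 1148, 1147 and 1043.

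Markers of cell division gave few calls, and fetal liver genes moved both ways, where 24.1% of all genes were called in either direction. In the cell cycle list 1 of 33 genes, Top2a, was higher (0.60 ± 0.20, limma adjusted p = 0.0495, and 0.101 to 0.166 without wild type 1, wild type 2, TGFB KO 1 or TGFB KO 2; 0.11 as the mean of its probe sets), and Mki67 was not called (0.28 ± 0.25). Top2a also lost the call with a constant of 1, the replicate block or no filter, under median centring and in both fits over 6 arrays. Among 16 fetal and perinatal liver genes 2 were higher and 4 lower. Cdkn1c, an imprinted inhibitor of the cell cycle, went from 1142, 795 and 914 to 120, 132 and 97.5 (-2.84 ± 0.35), and Afp, the fetal counterpart of albumin, was bright in both groups and not called (19109, 19466 and 5813 against 17695, 13435 and 12496, 0.28 ± 0.55). Spink1, a protease inhibitor that also responds to inflammation, rose from 83.8, 52.3 and 36.5 to 1234, 939 and 700 (3.68 ± 0.52).

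Probe sets without a single gene symbol, which had several symbols or none, were tested apart. Of 4076 such sets 252 (6.18%) were higher and 127 (3.12%) lower by limma with Benjamini-Hochberg adjustment over these sets. The largest rise went from 107, 74.2 and 46.4 to 4596, 3471 and 3980, and the largest fall from 1193, 1151 and 1146 to 7.38, 21.2 and 25.2. For the called genes with more than 1 probe set, 2399 further sets were tested. Of these 91.5% had the sign of the set used, 39.8% were also past the threshold in that direction, and 3 were past it in the opposite direction.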

How the data were processed

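Liver RNA extracted with Trizol was labelled by a one-cycle protocol and measured on 1-colour oligonucleotide arrays, per the labels. The authors deposited 1 signal intensity on a linear scale for each of 45101 probe sets and array. The summarising algorithm is not given in the sources used here; from the values, each array has the same trimmed mean. Here log2(signal + 16) was quantile-normalized over the 12 arrays. Probe sets whose mean over these arrays lay below the 40th percentile (log2 level 5.25) were left out. Platform annotation gave 34945 probe sets a single symbol, 932 several and 9224 none, 64 controls included, and 34741 of the single symbols were matched to the RefSeq table by gene identifier. The brightest probe set stood for each gene. Limma 3.58.1 in R 4.3.3 was fitted over all 4 groups of 3 arrays (8 residual and 3.44 prior degrees of freedom), with Benjamini-Hochberg adjustment over 12755 genes at 0.05, and was tested on simulated data. Its p-values rest on the spread between 3 mice a group, and the number of arrays limits the precision. Groups came from the titles. Shared replicate numbers do not pair the mice.

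The members and gene lists were chosen with earlier results of these data known. Named genes are the largest rises and falls without overlap, Tgfb1 and Ifng, the largest called members of each list, members against its direction, and defining receptors, ligands and enzymes; some further members were named after their values were seen. Alternatives were the scaling, added constant, filter, probe set choice, model, replicate block and each array left out, plus normalization and fit over the 6 arrays, which was chosen after seeing the data. No value was left out of the 6 arrays.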

Additional observations from a re-analysis of the deposited data

How the results depend on the processing

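The count of genes higher in TGFB KO kept within 1.5 times of 1553 under every alternative run, from 1377 without a filter to 1637 under the deposited scaling, and from 1159 to 1382 with 1 array left out. The count lower kept within 1.5 times of 1524 (1197 to 1697, and 1024 to 1209 with 1 array left out) except under median centring, which gave 894; the median of all genes was then 0.03 in place of -0.06, and the cause was not tested. Normalization and fit over the 6 arrays alone, chosen after seeing the data, gave 1445 higher and 1410 lower. With the replicate number as a block the counts were 1542 and 1509. The correlations of the deviations of same-numbered wild type and TGFB KO arrays were 0.0975, 0.0650 and 0.343, and not every array correlated best with its own number, so the pairing has no support beyond the shared numbers. Of 675 called genes in the lists and families, 0 turned direction in any setting, 482 stayed called with each of the 6 arrays left out, 193 lost the call with at least 1 of them, and 136 lost it under at least 1 other setting (78 under median centring, 77 without a filter, 30 with the replicate block). Over all 3077 called genes, 1792 stayed called with each of the 6 arrays left out and 1285 lost the call with at least 1 of them. Folds of dim genes, whose signals lie near the added constant of 16, are the least certain.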
